A study of Mus musculus with 12 samples.

Results

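The endothelin, nitric oxide and prostanoid genes that set vascular tone were followed in bulk RNAseq of cardiac fibroblasts reprogrammed with *Sox17* and *Erg*. They were picked by gene symbol and are *Edn1*, *Ece1*, *Ednra*, *Ednrb*, *Nos3*, *Gucy1a1*, *Gucy1b1*, *Ptgs1*, *Ptgs2* and *Ptgis*. All 10 were found among the 35727 genes of the count table, and all 10 were among the 15506 genes that passed the filter for low counts. Fibroblasts were isolated from pooled hearts of neonatal mice and infected with retrovirus, and RNA was taken on Day 3, Day 7 and 4 weeks. The *Sox17*-*Erg* samples received both factors, and the control libraries carry the name of the pMX retroviral backbone. The labels name no genotype for either group, and the strain listed for wild-type mice in the study is C57BL/6J. There were 12 libraries, 2 for each of 6 groups, and nothing in the labels says whether they came from separate isolations, so p-values measure the spread between these libraries only.

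The labels give EGM2, an endothelial medium, as the growth medium, and the methods name a fibroblast medium for plating and for the virus. The labels name no sort before RNA isolation, and the count table does not give the share of reprogrammed cells. The methods describe magnetic selection of THY1-positive cells at isolation, which would reduce other cell types, and for the characterization of the reprogrammed cells the study added a depletion of PECAM1-positive cells, which the labels do not mention for these libraries. A lower level of a gene in such a sample can come from fewer cells of a type or from less RNA per cell, and these cannot be told apart. In the values that follow, CPM are counts scaled to the TMM-normalized library size. Library totals ran from 19011635 to 41240449 counts. Of 11 endothelial markers tested, 4 were higher on Day 3, 5 on Day 7 and 7 after 4 weeks in the *Sox17*-*Erg* samples, where 1, *Eng*, was lower after 4 weeks, and *Cldn5*, the tight-junction claudin of endothelium, had at most 10 counts in any library and 0 in 4 of them. The summed CPM of 5 mesothelial markers was 112 to 287 in *Sox17*-*Erg* and 233 to 1230 in control libraries, and all 5 were lower after 4 weeks. Summed leukocyte markers were 60.5 to 422 CPM against 48.7 to 1240, summed cardiomyocyte markers 323 to 678 against 608 to 1510, and summed mural markers 2500 to 5030 against 1200 to 4080. Of 10 mural markers, 1 was higher on Day 3, 5 were higher and 1 lower on Day 7, and 4 were higher and 3 lower after 4 weeks, when *Myh11*, the smooth muscle myosin, was 251 against 45.6 CPM and *Des*, the muscle filament desmin, 11.1 against 41.5. Of 10 fibroblast markers, 0 were higher and 1 lower on Day 3, 1 and 3 on Day 7, and 1 and 4 after 4 weeks. *Tcf21* was 30.8 against 217 CPM on Day 3, and after 4 weeks *Dcn* was 263 against 2600, *Lum* 73.0 against 763 and *Pdgfra* 333 against 1630 CPM, while *Postn* was 1440 against 53.9. The summed fibroblast markers, most of them collagen counts, were 12800 to 42000 against 16700 to 40300 CPM, and the summed glial markers 1.81 to 9.48 against 1.93 to 4.42 CPM.

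Endothelial cells set the tone of the muscle around a vessel through released mediators. *Edn1* encodes the precursor of endothelin-1, which the peptidase encoded by *Ece1* cleaves to the active constrictor, and the receptors encoded by *Ednra* and *Ednrb* bind it on muscle and on endothelium. Nitric oxide, made in endothelium by the synthase encoded by *Nos3*, activates a soluble guanylyl cyclase built from an alpha and a beta subunit, whose product cGMP relaxes muscle. Cyclooxygenases (*Ptgs1* and *Ptgs2*) make the common precursor of the prostanoids, and prostacyclin synthase (*Ptgis*) turns it into a vasodilator.

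The endothelin ligand was higher in *Sox17*-*Erg* samples at every time point, while the alpha-1 subunit of the nitric oxide receptor, cyclooxygenase-1 and prostacyclin synthase were lower at every time point. By edgeR's quasi-likelihood test with Benjamini-Hochberg adjustment, 1 of the 10 genes was higher and 3 were lower on Day 3, where 12.3% of all genes tested passed an adjusted p under 0.05, 7.19% higher and 5.13% lower. On Day 7, 1 was higher and 4 were lower, against 17.4% of all genes called (9.48% higher and 7.93% lower). After 4 weeks 2 were higher and 4 lower, against 22.9% (11.9% and 11%). The median log2 fold change of the 10 genes was -0.47, -0.79 and 0.10 at the 3 time points, and that of all genes tested was 0.01, 0.01 and -0.01. The count on Day 3 was 4 with all libraries, 2 without the first control library of Day 3 and 1 without the first *Sox17*-*Erg* library of Day 3, fits in which 2.34% and 1.69% of all genes were called.

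**Figure D1:**
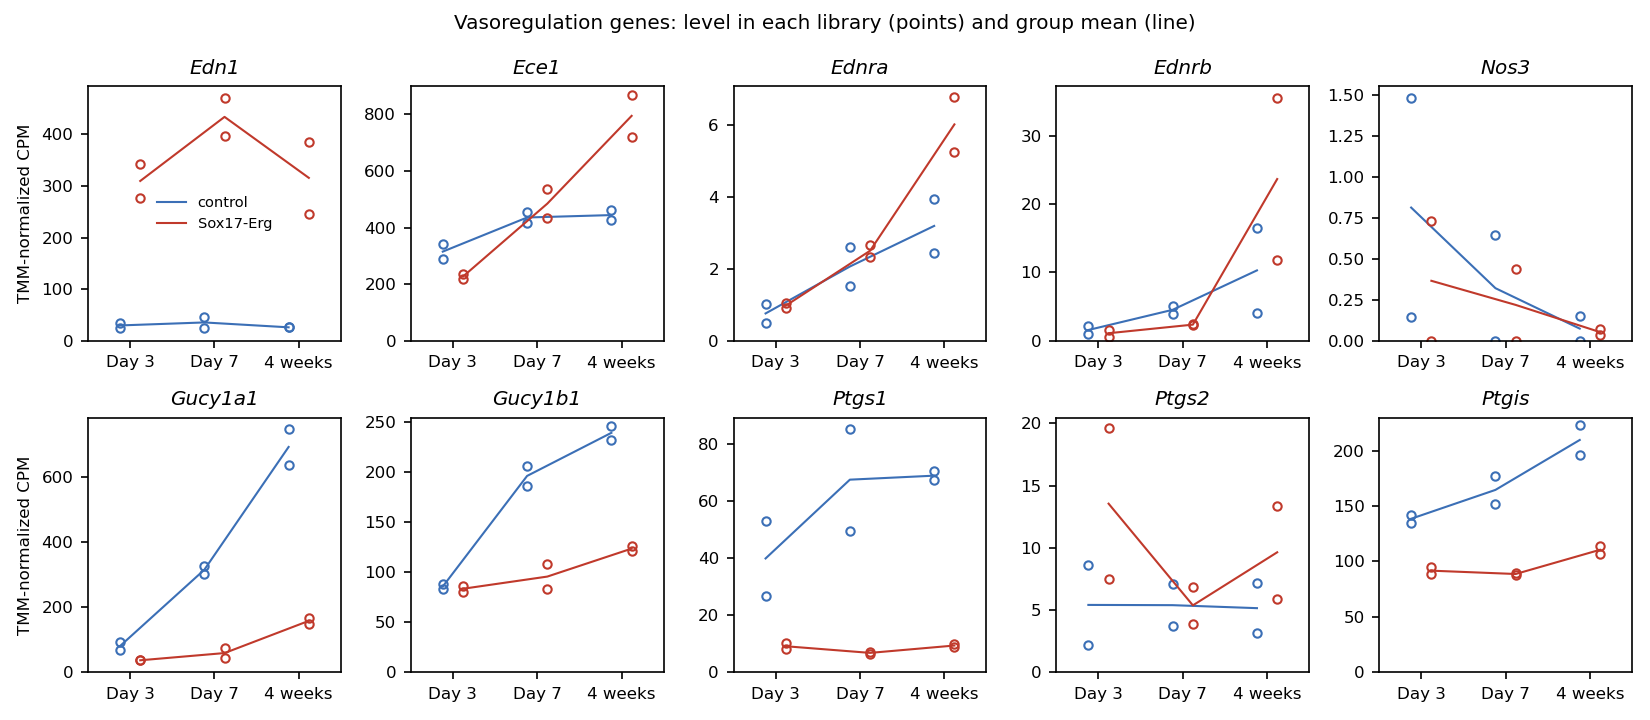
TMM-normalized CPM of each gene, with 1 point per library, a line through the group means, control in blue and *Sox17*-*Erg* in red, on linear axes that start at 0 and differ between panels. *Edn1* was above control at all time points, from 246 to 471 CPM against 25.8 to 45.6, and *Ptgs1* was below, from 6.45 to 10.2 CPM against 26.7 to 85.2.

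*Edn1* (ENSMUSG00000021367, GRCm38 chr13:42301476-42307990, plus strand) is protein coding and overlaps the antisense gene *Gm47118*. Its proximal promoter is shown because *Edn1* rose most of the 10 genes. Next to it are those of *Gucy1b1*, lower on Day 7 and after 4 weeks, and *Ptgs1*, lower at every time point. Each sequence is the 250 bases before the RefSeq start on GRCm38.p6, read 5′ to 3′ on the strand of the gene, at chr13:42301226-42301475 (plus), chr3:82074712-82074961 (minus) and chr2:36230176-36230425 (plus). Capitals mark GGAA, the core bound by ETS factors such as ERG, or ACAAT, a core bound by SOX factors, on either strand, so that TTCC and ATTGT are in capitals too.
Edn1: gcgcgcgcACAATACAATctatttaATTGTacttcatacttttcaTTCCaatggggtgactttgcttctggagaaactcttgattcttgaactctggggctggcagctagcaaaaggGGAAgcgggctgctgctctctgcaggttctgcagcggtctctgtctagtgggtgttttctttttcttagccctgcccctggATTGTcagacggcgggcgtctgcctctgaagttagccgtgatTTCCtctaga
Gucy1b1: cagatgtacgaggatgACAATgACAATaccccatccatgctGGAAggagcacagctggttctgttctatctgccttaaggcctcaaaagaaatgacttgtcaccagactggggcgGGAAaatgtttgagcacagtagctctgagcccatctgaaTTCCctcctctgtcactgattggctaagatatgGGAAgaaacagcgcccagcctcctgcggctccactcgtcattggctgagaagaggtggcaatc
Ptgs1: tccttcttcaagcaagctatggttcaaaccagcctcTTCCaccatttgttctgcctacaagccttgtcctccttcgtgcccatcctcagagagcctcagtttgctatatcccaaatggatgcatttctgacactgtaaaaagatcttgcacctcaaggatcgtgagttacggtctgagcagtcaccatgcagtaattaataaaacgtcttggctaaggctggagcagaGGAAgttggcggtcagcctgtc
The *Edn1* promoter held 3 GGAA and 4 ACAAT matches, that of *Gucy1b1* held 4 and 2, and that of *Ptgs1* held 2 and 0. Of 32851 RefSeq promoters of the same length, 93.4% held GGAA and 27.7% held ACAAT, while 54.7% held GGAA at least 3 times, 33.4% GGAA at least 4 times, 6.59% ACAAT at least 2 times and 0.259% ACAAT at least 4 times. Of the 10 genes, 8 had a promoter entry, with 12 entries in all. *Ptgs2* held 6 GGAA and 0 ACAAT, *Ednra* 3 and 0, and *Ednrb* 2 and 0. The 2 entries of *Gucy1a1* held 0 and 4 GGAA and no ACAAT, and the 4 entries of *Ece1* held 0 to 3 GGAA, with 1 ACAAT in 1 of them. A match is a string of letters and no measure of binding.

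*Edn1* was 25.8 and 34.1 CPM in the control libraries on Day 3 and 343 and 276 CPM in the *Sox17*-*Erg* libraries. The Day 7 levels were 25.9 and 45.6 against 471 and 396 CPM, and after 4 weeks 26.5 and 26.1 against 385 and 246 CPM. All *Sox17*-*Erg* libraries lay above all control libraries. Its log2 fold change was 3.37 on Day 3 (standard error 0.32, adjusted p = 0.00062), 3.60 on Day 7 (0.32, 2e-04) and 3.59 after 4 weeks (0.32, 0.00011), or 10.3-fold, 12.1-fold and 12-fold. Leaving out any 1 library kept it between 3.16 and 4.06, with adjusted p-values of 0.015 or less. Among the 15506 genes, *Edn1* ranked 173rd from the highest fold change on Day 3, 208th on Day 7 and 355th after 4 weeks. Between Day 3 and 4 weeks it changed by 0.03 on the log2 scale in *Sox17*-*Erg* (adjusted p = 0.95) and by -0.18 in control samples (0.68), so no change with time was detectable in either group.

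The other endothelin ligands were near absent. *Edn2* had 16 and 7 counts in the *Sox17*-*Erg* libraries on Day 3, 13 and 6 on Day 7, and 5 and 0 after 4 weeks, and 0 in all control libraries. Against a floor of 3 counts per control library, that was at least 4.38-fold higher on Day 3 and at least 2.73-fold higher on Day 7, and these counts were too low for the test. *Edn3* had 7 and 0 counts in the control libraries and 1 and 0 in the *Sox17*-*Erg* libraries after 4 weeks. The pooled control to *Sox17*-*Erg* ratio was 6.0 (95% exact interval 0.77 to 270.0, counting error only). It rests on 1 library of each group.

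*Ece1* (ENSMUSG00000057530, chr4:137862237-137965229, plus strand, with the antisense gene *Gm13012*) encodes the enzyme that activates endothelin. On Day 3 it was 288 and 343 CPM in control and 237 and 218 in *Sox17*-*Erg* libraries. On Day 7 the levels overlapped, at 416 and 456 against 536 and 434 CPM. After 4 weeks they were 462 and 427 against 868 and 722 CPM, with both *Sox17*-*Erg* libraries above both controls. The log2 fold change was -0.47 on Day 3 (standard error 0.16, adjusted p = 0.085), 0.15 on Day 7 (0.16, 0.55) and 0.84 after 4 weeks (0.16, 0.0057). DESeq2 gave -0.49 on Day 3 with an adjusted p of 0.023. Within the *Sox17*-*Erg* samples *Ece1* rose by 1.80 from Day 3 to 4 weeks (adjusted p = 0.00035), and in control samples by 0.49 (0.048, and 0.056 with a replicate block). The difference between these effects was 1.31 on the log2 scale (standard error 0.23, adjusted p = 0.018), where 3.21% of all genes tested passed the threshold (2.22% above 0 and 0.987% below). This adjusted p rose to at most 0.069 when 1 library was left out, and it missed 0.05 in 5 of 12 such fits: without the second control or the second *Sox17*-*Erg* library of Day 3, either control library of 4 weeks or the first *Sox17*-*Erg* library of 4 weeks. The rise in control samples was lost without any 1 of 8 libraries, all but the Day 7 and 4-week *Sox17*-*Erg* libraries. Per kilobase of exon, *Ece1* and *Edn1* had the highest levels of the 10 genes in *Sox17*-*Erg* samples after 4 weeks, with means of 150 and 148 CPM per kb and overlapping libraries. In control samples after 4 weeks *Ece1* had 83.9 and *Edn1* 12.3 CPM per kb.

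The endothelin receptors were low in both groups and rose with time in both. *Ednra* (ENSMUSG00000031616, chr8:77663031-77724464, minus strand), the receptor through which endothelin contracts muscle, was 0.509 and 1.02 CPM in control and 1.06 and 0.905 CPM in *Sox17*-*Erg* libraries on Day 3. By Day 7 it was 2.61 and 1.53 against 2.34 and 2.68 CPM, and after 4 weeks 3.96 and 2.44 against 5.27 and 6.78 CPM. The groups overlapped on Day 3 and Day 7, and after 4 weeks *Sox17*-*Erg* lay above control by 0.90 on the log2 scale, which did not pass (standard error 0.38, adjusted p = 0.12). From Day 3 to 4 weeks *Ednra* rose by 2.61 in *Sox17*-*Erg* (adjusted p = 0.0028) and by 2.09 in control samples (0.0078). Without the first control library of Day 3 or of 4 weeks, the rise in control samples was 1.66 or 1.69 (adjusted p = 0.063 or 0.055).

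*Ednrb* (ENSMUSG00000022122, chr14:103814625-103844402, minus strand), the receptor that in endothelium clears the peptide and leads to nitric oxide release, was 1.06 and 2.13 CPM in control and 0.607 and 1.64 CPM in *Sox17*-*Erg* libraries on Day 3. On Day 7 it was 5.15 and 3.94 against 2.48 and 2.28 CPM. After 4 weeks it was 16.5 and 4.11 against 35.5 and 11.8 CPM. The first library of each pair was the higher after 4 weeks in both groups, and the groups overlapped. Its log2 fold change was -0.46 on Day 3 (standard error 0.83, adjusted p = 0.75), -0.93 on Day 7 (0.73, 0.42) and 1.19 after 4 weeks (0.68, 0.25). With a block for the replicate number within each time point, the change was -0.93 on Day 7 (standard error 0.20, adjusted p = 0.015) and 1.30 after 4 weeks (0.18, 0.0024), and the difference in effect between 4 weeks and Day 3 was 1.84 (0.30, 0.019) in place of 1.65 (1.1, 0.5). A single block over all time points did not change these calls. *Ednrb* is also expressed in glia, whose summed markers were 4.42 to 9.48 CPM in *Sox17*-*Erg* and 1.93 to 2.72 CPM in control libraries after 4 weeks, and their part was not tested. *Ednrb* rose from Day 3 to 4 weeks by 4.37 in *Sox17*-*Erg* (adjusted p = 0.0052) and by 2.72 in control samples (0.029). The latter was 1.39 without the first control library of 4 weeks (adjusted p = 0.25), 2.29 without the first control library of Day 3 (0.17) and 3.27 without the second (0.081). Between Day 3 and 4 weeks, 5 of the 10 genes rose in *Sox17*-*Erg* and 6 rose in control samples, where 30.7% and 26.5% of all genes tested were called (15.1% and 13.9% higher, 15.6% and 12.6% lower), and *Ece1*, *Ednra*, *Ednrb*, *Gucy1a1* and *Gucy1b1* were in both.

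Of the other endothelin genes listed, *Ece2*, a second converting enzyme, and *Mme*, the peptidase neprilysin that degrades endothelin, could be tested. *Ece2* was lower on Day 7 by 1.02 on the log2 scale (mean 5.43 CPM against 11, adjusted p = 0.021), with values of -0.07 on Day 3 and -0.69 after 4 weeks that did not pass. In a fit of the Day 7 libraries alone its adjusted p was 0.059, and it was up to 0.16 without the second control or the first *Sox17*-*Erg* library of Day 7. *Mme* was not called at any time point.

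**Figure D2:**
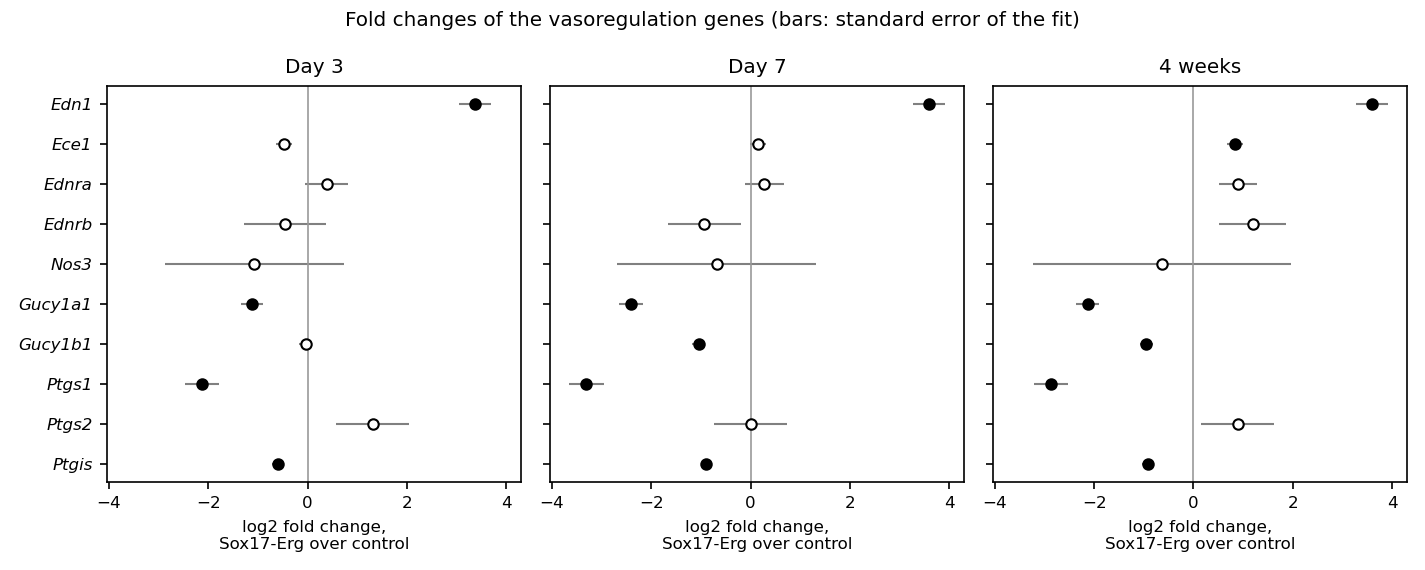
Log2 fold change of each gene in *Sox17*-*Erg* over control samples (horizontal axis) on Day 3, Day 7 and 4 weeks, with the standard error of the edgeR fit as bars and filled points for an adjusted p under 0.05. *Edn1* lies at 3.37, 3.60 and 3.59, *Ptgs1* at -2.13, -3.31 and -2.87, and the wide bars of *Nos3* come with 0 to 32 counts per library.

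*Nos3* (ENSMUSG00000028978, chr5:24364810-24384474, plus strand), the endothelial nitric oxide synthase, was near the limit of detection. It had 4 and 32 counts in the control libraries on Day 3 and 0 and 17 in the *Sox17*-*Erg* libraries. On Day 7 it had 0 and 16 against 0 and 10 counts, and after 4 weeks 6 and 0 against 2 and 1 counts. The second library held nearly all counts on Day 3 and Day 7 in both groups, and no group lay above the other. The summed endothelial markers were 518 and 629 CPM in the control libraries of Day 3, 787 and 1090 on Day 7 and 1220 and 1890 after 4 weeks, and 738 to 1530 CPM in all *Sox17*-*Erg* libraries. Most of the control sum was *Eng* and *Flt1*, at means of 1230 and 299 CPM after 4 weeks, when *Cdh5* was 0.41 in control and 445 in *Sox17*-*Erg* samples, *Pecam1* 5.82 and 106 and *Emcn* 1.14 and 27.9 CPM. Of the 12 markers, 9 were higher in the second control library on Day 3 and 9 on Day 7, and 3 and 2 in the first. After 4 weeks these markers split 6 and 6. Their part in the *Nos3* counts was not tested. The highest level was 1.48 CPM, in the second control library of Day 3. The log2 fold change was -1.07 on Day 3 (standard error 1.8, adjusted p = 0.74), -0.68 on Day 7 (2.0, 0.85) and -0.63 after 4 weeks (2.6, 0.89). After 4 weeks the libraries held 6 counts over control and 3 over *Sox17*-*Erg*, a control to *Sox17*-*Erg* ratio of 1.71 (95% exact interval 0.366 to 10.6, counting error only). A difference in *Nos3* was not detectable at this depth. *Nos3* overlaps *Atg9b*, a protein-coding gene on the other strand. The other synthases were low too: *Nos1* had mean levels of 0.634 to 1.33 CPM in the 6 groups and was not called at any time point, and *Nos2* did not pass the filter.

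Of the other genes listed for nitric oxide synthesis, 8 of 16 tested were called at 1 or more time points. Of the 16, 2 were higher and 1 lower on Day 3, 4 higher and 0 lower on Day 7, and 5 higher and 2 lower after 4 weeks, which left 13, 12 and 9 not called, and their median log2 fold change was 0.07, 0.05 and -0.21. Over all 5 lists of other pathway genes, 28.6%, 39.3% and 48.2% of 56 genes tested were called, beside the 12.3%, 17.4% and 22.9% of all genes given above. *Ddah1*, which degrades the methylated arginines that inhibit nitric oxide synthases, was 90.3 and 72.1 CPM in control and 191 and 168 in *Sox17*-*Erg* libraries on Day 3. The Day 7 levels were 20.9 and 11.3 against 178 and 87.3 CPM, and after 4 weeks 5.41 and 9.15 against 151 and 120 CPM. Control levels were lower at each later time point while no *Sox17*-*Erg* library was below 87.3 CPM, and its log2 fold change was 1.14 on Day 3 (adjusted p = 0.080), 3.04 on Day 7 (0.0015) and 4.23 after 4 weeks (0.00023). *Ddah2*, of the same function, was higher after 4 weeks by 0.98 (adjusted p = 0.0061). *Cav1*, the caveolin that binds and inhibits the endothelial synthase, was higher at all time points, by 1.97, 2.68 and 2.30 (adjusted p = 0.0099, 0.0014 and 0.0018), with means of 958, 716 and 619 CPM against 244, 112 and 125. *Nostrin*, which moves the synthase away from the membrane, was lower on Day 3 by 1.80 (adjusted p = 0.029), and *Spr* and *Qdpr*, enzymes of the tetrahydrobiopterin cofactor, were lower after 4 weeks by 0.45 and 0.44 (0.038 and 0.023). Without either control library or the first *Sox17*-*Erg* library of Day 3, the Day 3 calls of *Cav1* and *Nostrin* were lost, with adjusted p-values up to 0.093 and 0.20. The 4-week call of *Qdpr* was lost without the second control library of Day 3, either control library of 4 weeks or the first *Sox17*-*Erg* library of 4 weeks (up to 0.15), and that of *Spr* in 7 of 12 fits, the first *Sox17*-*Erg* library of 4 weeks and all 4 control libraries of Day 3 and 4 weeks among those left out, with both *Sox17*-*Erg* libraries of Day 7 (up to 0.23).

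The 2 subunits of the nitric oxide receptor are neighbours on chromosome 3. *Gucy1a1* (ENSMUSG00000033910, chr3:82092427-82145789, minus strand) encodes the alpha-1 subunit and *Gucy1b1* (ENSMUSG00000028005, chr3:82032006-82074689, minus strand) the beta-1 subunit, 17737 bases apart on the same strand with 0 annotated genes between them. *Gucy1a1* was 93.1 and 68.9 CPM in control and 37.2 and 37.4 CPM in *Sox17*-*Erg* libraries on Day 3. By Day 7 it was 304 and 327 against 45.2 and 73.8 CPM, and after 4 weeks 748 and 638 against 150 and 167 CPM. It was below control in all *Sox17*-*Erg* libraries at each time point. Of the fibroblast markers, *Dcn*, *Lum* and *Pdgfra* were lower on Day 7 and after 4 weeks as well, and *Tcf21* on Day 3 and after 4 weeks, while *Postn* was higher on Day 7 and after 4 weeks and the other 5 were not called. Their part in the *Gucy1a1* and *Gucy1b1* results was not tested. Its log2 fold change was -1.12 on Day 3 (standard error 0.23, adjusted p = 0.017), -2.41 on Day 7 (0.24, 0.00034) and -2.13 after 4 weeks (0.23, 0.00031), or 2.17-fold, 5.31-fold and 4.37-fold lower. The Day 3 call was lost without the first control library (adjusted p = 0.11) or either *Sox17*-*Erg* library of Day 3 (0.13 and 0.061). *Gucy1a1* rose with time in both groups, by 3.10 in control (adjusted p = 0.00017) and by 2.09 in *Sox17*-*Erg* samples (0.00069) from Day 3 to 4 weeks. The difference between these rises was -1.01 (standard error 0.32, adjusted p = 0.14), and it passed with DESeq2 (-0.98, adjusted p = 0.048) and with no filter on low counts (-1.02, 0.014).

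*Gucy1b1* did not separate the groups on Day 3, at 88.3 and 83.1 CPM in control and 80.4 and 86.5 in *Sox17*-*Erg* libraries. On Day 7 it was 186 and 206 against 83.2 and 108 CPM, and after 4 weeks 232 and 246 against 121 and 126 CPM, with both *Sox17*-*Erg* libraries below both controls. The log2 fold change was -0.04 on Day 3 (standard error 0.13, adjusted p = 0.88), -1.04 on Day 7 (0.13, 0.0013) and -0.95 after 4 weeks (0.13, 0.0012). It rose from Day 3 to 4 weeks by 1.48 in control (adjusted p = 0.00032) and by 0.57 in *Sox17*-*Erg* samples (0.013), a difference of -0.92 (standard error 0.19, adjusted p = 0.036). That difference lay between -0.96 and -0.80 with 1 library left out, and its adjusted p exceeded 0.05 in 9 of 12 such fits, up to 0.18. The 3 fits in which it passed left out the second control library or either *Sox17*-*Erg* library of Day 7. The rise in *Sox17*-*Erg* samples had an adjusted p of 0.067 without their first library of Day 3 and 0.055 without their second library of 4 weeks. Per kilobase of exon, the ratio of *Gucy1a1* to *Gucy1b1* in control libraries was 0.594 and 0.467 on Day 3, 0.921 and 0.894 on Day 7, and 1.82 and 1.46 after 4 weeks. In *Sox17*-*Erg* libraries it was 0.261 and 0.244, then 0.306 and 0.385, and then 0.700 and 0.746, below both controls at each time point.

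**Figure D3:**
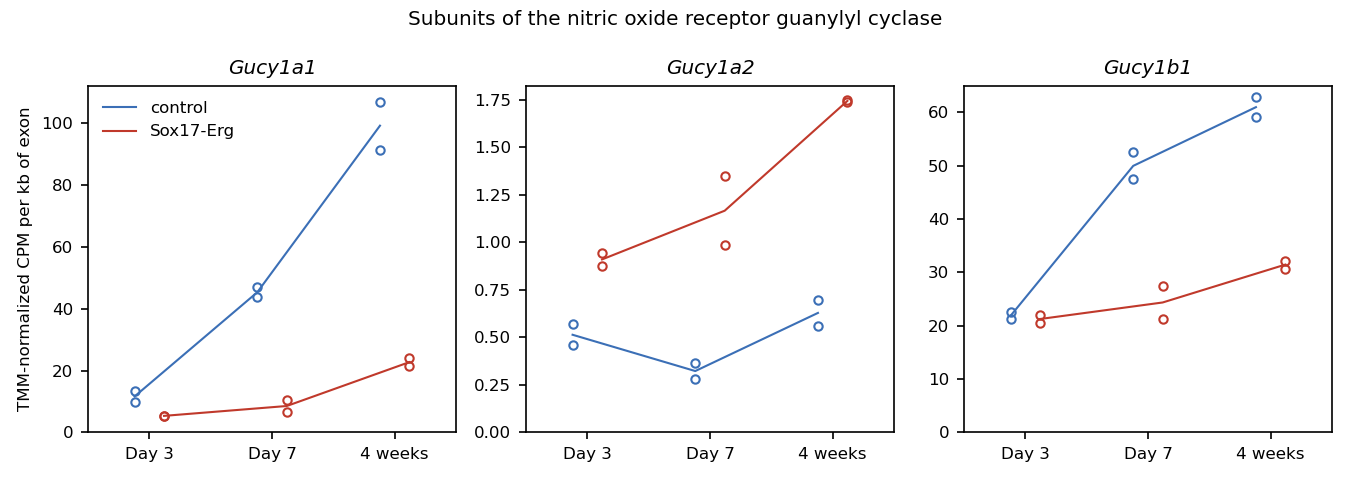
TMM-normalized CPM per kb of exon of the guanylyl cyclase subunits, with 1 point per library, a line through the group means, control in blue and *Sox17*-*Erg* in red, on linear axes that start at 0 and differ between panels. *Gucy1a1* reached means of 99.5 in control and 22.8 in *Sox17*-*Erg* samples after 4 weeks, while *Gucy1a2* was higher in *Sox17*-*Erg* libraries, at 1.74 and 1.75 against 0.561 and 0.697.

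The alternative alpha subunit moved the other way. *Gucy1a2* was 3.78 and 3.05 CPM in control and 5.82 and 6.29 CPM in *Sox17*-*Erg* libraries on Day 3. The Day 7 levels were 1.88 and 2.41 against 8.99 and 6.55 CPM, and after 4 weeks 3.73 and 4.64 against 11.6 and 11.6 CPM. All *Sox17*-*Erg* libraries lay above the controls of their time point, and the log2 fold change was 0.82 (standard error 0.23, adjusted p = 0.048), 1.86 (0.23, 0.0012) and 1.47 (0.23, 0.0019). The Day 3 call was lost under DESeq2's size factors (adjusted p = 0.052), a replicate block (0.054), a block within each time point (0.053) and a fit of Day 3 alone (0.074), and in 10 of 12 fits with 1 library left out. In CPM per kb of exon it reached 1.74 and 1.75 in the *Sox17*-*Erg* libraries of 4 weeks, where *Gucy1a1* had 21.5 and 24.0.

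Of 17 other cGMP genes tested, 1 was higher and 5 lower on Day 3, 4 and 4 on Day 7, and 3 and 7 after 4 weeks, with medians of -0.71, -0.62 and -0.82. Mural markers, 5 higher and 1 lower on Day 7 and 4 higher and 3 lower after 4 weeks, moved in both directions, and their part in the cGMP and receptor results was not tested. *Npr1*, the receptor cyclase for atrial natriuretic peptide, was lower by 2.44 on Day 7 and 2.77 after 4 weeks (adjusted p = 0.0022 and 0.0007), at means of 5.01 and 9.51 CPM against 27.1 and 64.7. *Nppa*, which encodes that peptide, was lower after 4 weeks by 2.15 (adjusted p = 0.0076). *Nppa* is also a product of cardiomyocytes, and 5 of 7 cardiomyocyte markers were lower after 4 weeks, where their sums were 666 to 678 CPM in *Sox17*-*Erg* and 1040 to 1270 in control libraries. Their part in this result was not tested. Among phosphodiesterases, which break down cyclic nucleotides, *Pde1b* was higher by 1.43 on Day 7 (adjusted p = 0.0056) and 4.47 after 4 weeks (1.8e-05). It was 51.5 and 43.8 CPM in the *Sox17*-*Erg* libraries of 4 weeks and 1.95 and 2.36 CPM in control libraries. *Pde5a*, which is specific for cGMP, was higher on Day 7 by 0.70 (adjusted p = 0.035), and *Pde1a* and *Pde3a* were called lower at all time points. *Pde9a* was lower on Day 3 by 2.72 (adjusted p = 0.044) from 0.313 against 2.13 CPM. Downstream, *Mrvi1*, a substrate of the cGMP-dependent kinase in smooth muscle, was lower at all time points by 2.13, 1.67 and 1.40 (adjusted p = 0.020, 0.032 and 0.048). *Vasp*, another substrate, was higher on Day 7 by 0.43 and after 4 weeks by 0.51 (0.037 and 0.014). The Day 7 calls of *Pde1b*, *Pde5a*, *Vasp* and *Mrvi1* were lost in a fit of Day 7 alone (adjusted p = 0.058, 0.082, 0.17 and 0.11), and the call of *Pde9a* on Day 3 was lost without any 1 library other than the 2 *Sox17*-*Erg* libraries of Day 7 (up to 0.27), that of *Vasp* on Day 7 without any but the first control library of 4 weeks (up to 0.24). The *Nppa* call was lost without the first *Sox17*-*Erg* library of 4 weeks (0.063), and the 4-week call of *Vasp* without that library, the second *Sox17*-*Erg* or the first control library of 4 weeks (up to 0.12). *Pde5a* lost its call in 6 of 12 such fits (up to 0.19), those without a Day 7 library or the first *Sox17*-*Erg* library of Day 3 or 4 weeks. The *Mrvi1* calls were lost in 3 fits on Day 3 (up to 0.16), without either control or the first *Sox17*-*Erg* library of Day 3. On Day 7 they were lost in 2 fits (up to 0.16), without the second control or the first *Sox17*-*Erg* library of Day 7. After 4 weeks 8 fits lost the call (up to 0.18), all but those without a *Sox17*-*Erg* library of Day 3 or Day 7.

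*Ptgs1* (ENSMUSG00000047250, chr2:36230426-36252272, plus strand), the constitutive cyclooxygenase, had the largest negative fold change of the 10 genes at each time point. It was 53.0 and 26.7 CPM in control and 10.2 and 8.10 CPM in *Sox17*-*Erg* libraries on Day 3. By Day 7 it was 85.2 and 49.6 against 6.45 and 7.21 CPM, and after 4 weeks 67.2 and 70.4 against 9.98 and 8.82 CPM. No *Sox17*-*Erg* library exceeded 10.2 CPM and no control library was below 26.7 CPM. Its log2 fold change was -2.13 on Day 3 (standard error 0.34, adjusted p = 0.0067), -3.31 on Day 7 (0.35, 0.00048) and -2.87 after 4 weeks (0.34, 0.00051), or 4.37-fold, 9.89-fold and 7.32-fold lower. Without the first *Sox17*-*Erg* library of Day 3, the adjusted p on Day 3 was 0.055. Leukocytes and mesothelium also express *Ptgs1*. Leukocyte marker sums on Day 7 were 811 and 1240 CPM in control against 244 and 422 CPM in *Sox17*-*Erg* libraries, with 0 of 10 markers called. After 4 weeks these sums overlapped, at 48.7 and 391 against 60.5 and 297 CPM, with 0 of 10 markers called. Mesothelial sums were 784 to 1230 against 148 to 227 CPM after 4 weeks, and of 10 fibroblast markers 1, 3 and 4 were lower and 0, 1 and 1 higher at the 3 time points. The part of these cell types in the *Ptgs1* result was not tested.

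*Ptgs2* (ENSMUSG00000032487, chr1:150100031-150108227, plus strand), the inducible cyclooxygenase, was 8.62 and 2.22 CPM in control and 19.6 and 7.50 CPM in *Sox17*-*Erg* libraries on Day 3. On Day 7 it was 7.10 and 3.70 against 6.86 and 3.91 CPM, and after 4 weeks 7.19 and 3.13 against 13.4 and 5.89 CPM. The first library was the higher in every group, and the groups overlapped at each time point. The log2 fold change was 1.31 on Day 3 (standard error 0.74, adjusted p = 0.27), 0.00 on Day 7 (0.74, 1.0) and 0.89 after 4 weeks (0.73, 0.43). When same-numbered libraries were paired in a replicate block it was 1.40 on Day 3 (standard error 0.26, adjusted p = 0.012) and 0.91 after 4 weeks (0.26, 0.034), and with a block within each time point 1.44 (0.19, 0.004) and 0.91 (0.18, 0.010). With no filter on low counts it was called on Day 3 as well (1.31, adjusted p = 0.026). Per kilobase of exon, the ratio of *Ptgs1* to *Ptgs2* was 7.25 to 26.5 in the control libraries and 0.612 to 2.17 in the *Sox17*-*Erg* libraries.

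*Ptgis* (ENSMUSG00000017969, chr2:167191805-167240604, minus strand), prostacyclin synthase, was 142 and 135 CPM in control and 88.3 and 95.1 CPM in *Sox17*-*Erg* libraries on Day 3. The Day 7 levels were 152 and 177 against 89.4 and 88.0 CPM, and after 4 weeks 196 and 223 against 107 and 114 CPM. The groups did not overlap, and the log2 fold change was -0.60 (standard error 0.11, adjusted p = 0.014), -0.89 (0.11, 0.0013) and -0.92 (0.11, 0.00065), or 1.51-fold, 1.85-fold and 1.90-fold lower. The Day 3 call was lost without either control library (adjusted p = 0.092 and 0.060) or the first *Sox17*-*Erg* library of Day 3 (0.11). *Ptgis* rose from Day 3 to 4 weeks in control samples by 0.60 (adjusted p = 0.0063, and 0.055 without the second control library of Day 3). In *Sox17*-*Erg* samples it changed by 0.27 (0.10).

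Of 15 other prostanoid genes tested, 1 was higher and 4 lower on Day 3, 0 higher and 5 lower on Day 7, and 0 higher and 6 lower after 4 weeks, with medians of -0.58, -1.09 and -0.88. The genes lower at all time points were *Ptges*, *Ptger4*, *Hpgd* and *Slco2a1*. *Ptges*, the inducible prostaglandin E synthase, was lower by 1.86, 3.46 and 3.54 (adjusted p = 0.019, 0.00061 and 0.00027), and after 4 weeks was 13.8 and 13.3 CPM in control and 0.814 and 1.52 CPM in *Sox17*-*Erg* libraries. *Ptger4* is a prostaglandin E receptor. *Slco2a1* and *Hpgd* encode the transporter that takes up prostaglandins and the dehydrogenase that inactivates them. *Slco2a1* was lower by 2.37, 2.20 and 2.03 (adjusted p = 0.00057, 0.00029 and 0.00022) and *Hpgd* by 1.99, 3.03 and 2.62 (0.022, 0.0019 and 0.0022). *Ptgir*, the prostacyclin receptor, was lower after 4 weeks by 2.38 (adjusted p = 0.046), at 3.61 and 5.74 CPM against 17.4 and 31.3 CPM. *Ptges3*, a co-chaperone also described as a prostaglandin E synthase, was higher on Day 3 by 0.78 (0.033). The Day 3 call of *Ptges* was lost without either control or the first *Sox17*-*Erg* library of Day 3 (up to 0.15), and that of *Hpgd* without the first control or either *Sox17*-*Erg* library of Day 3 (up to 0.13). *Ptgir* lost its call in 8 of 12 fits with 1 library left out (up to 0.23), all but those without a *Sox17*-*Erg* library of Day 3 or Day 7. *Ptges3* lost its call in 7 (up to 0.23), those without a library of Day 3, the second control library of 4 weeks or a *Sox17*-*Erg* library of 4 weeks, while *Slco2a1* stayed at 0.0081 or less. Mesothelial marker sums were lower in *Sox17*-*Erg* at each time point, at 112 to 183 against 233 to 595 CPM on Day 3 and 202 to 287 against 454 to 870 CPM on Day 7, and 1, 3 and 4 of 10 fibroblast markers were lower and 0, 1 and 1 higher at the 3 time points. Their part in the results for *Ptgis* and these genes was not tested.

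Of 6 angiotensin, kinin and apelin genes tested, 2 were lower on Day 3, 4 on Day 7 and 4 after 4 weeks, and none was higher. *Agt*, the angiotensin precursor, was lower at all time points by 3.84, 4.27 and 4.28 (adjusted p = 0.022, 0.0052 and 0.0036). *Agtr1a*, the receptor that constricts vessels, was lower on Day 7 and 4 weeks by 3.53 and 4.16 (0.0074 and 0.0024). *Agtr2* had 142 counts over the control and 0 over the *Sox17*-*Erg* libraries on Day 7, at least 27.4-fold lower, and 48 against 1 after 4 weeks, a ratio of 41.1 (95% exact interval 7.04 to 1660, counting error only). *Apln*, the ligand apelin, was lower on Day 7 by 1.80 and after 4 weeks by 2.25 (adjusted p = 0.028 and 0.0099). The Day 3 call of *Agt* was lost without either control or the first *Sox17*-*Erg* library of Day 3 (up to 0.16), and the Day 7 call of *Apln* without either control or the first *Sox17*-*Erg* library of Day 7 (up to 0.21) and in a fit of Day 7 alone (0.079). Without the first *Sox17*-*Erg* library of Day 7 the adjusted p of *Agtr1a* was 0.082, and without the first *Sox17*-*Erg* library of 4 weeks that of *Agtr2* was 0.064 and that of *Apln* 0.086.

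**Figure D4:**
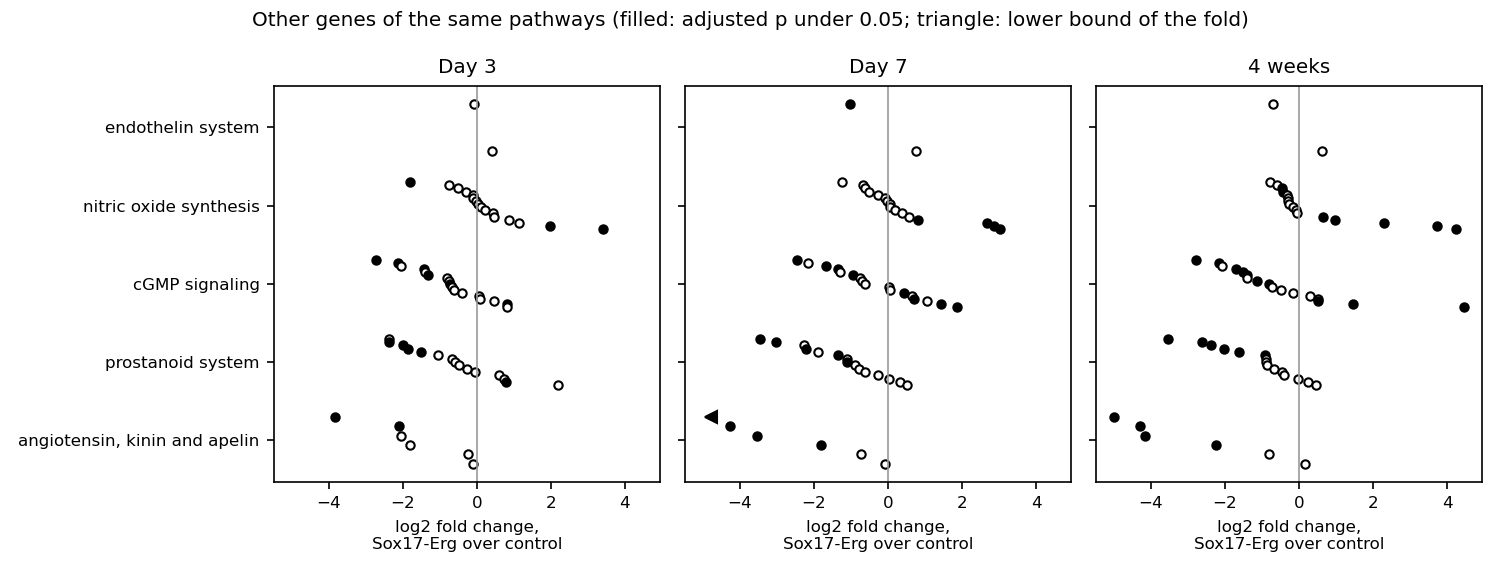
Log2 fold change in *Sox17*-*Erg* over control samples (horizontal axis) of the other genes of 5 vasoregulation lists (rows), with 1 symbol per gene tested, filled for an adjusted p under 0.05, and a triangle for *Agtr2* on Day 7, drawn at its bound of 27.4-fold lower. After 4 weeks 0 prostanoid genes were called higher and 6 lower, and in nitric oxide synthesis 5 were higher and 2 lower.

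Per kilobase of exon, the order of the 10 genes differed between the groups. In control samples after 4 weeks *Gucy1a1* had the highest mean, 99.5 CPM per kb, followed by *Ece1* at 83.9 and *Ptgis* at 81.6, whose libraries overlapped, and then by *Gucy1b1* at 61.0, *Ptgs1* at 17.7 and *Edn1* at 12.3. *Ednrb*, *Ptgs2* and *Ednra* followed at 2.42, 1.13 and 0.584 with overlapping neighbours, and *Nos3* at 0.0182. In *Sox17*-*Erg* samples after 4 weeks *Ece1* and *Edn1* were followed without overlap by *Ptgis* at 43.1, *Gucy1b1* at 31.5, *Gucy1a1* at 22.8 and *Ednrb* at 5.55. *Ptgs1* at 2.42 and *Ptgs2* at 2.11 overlapped, and *Ednra* was at 1.10 and *Nos3* at 0.0130. *Edn1* had the highest level per kb in *Sox17*-*Erg* samples on Day 3 and Day 7, at means of 145 and 203.

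Over the 12 libraries, the genes whose log2 CPM followed *Edn1* most closely were *Glis3* (Pearson r = 0.991), *Slit2* (0.991) and *Zfp609* (0.990). Those closest to *Gucy1a1* were *Hpgd* (0.986), *Fgl2* (0.986) and *Gsta3* (0.985), those closest to *Ptgis* were *Crispld2* (0.980), *Ptges* (0.974) and *Sp140* (0.970), and those closest to *Ptgs1* were *Spry2* (0.975), *Dclre1b* (0.970) and *Irf3* (0.966). For *Gucy1b1* they were *Zfp967* (0.993), *Zfp970* (0.992) and *Gm14421* (0.985), and for *Ece1* they included *Fgfrl1* (0.955) and *Pam* (0.955). For *Ednra* they were *Kazald1* (0.957), *Agap2* (0.944) and *Ephb1* (0.941), and for *Ednrb* they were *Cfap36* (0.963), *Pon2* (0.957) and *Mbd2* (0.940). *Ptgs2* was followed less closely, by *Bbs12* (0.860), *Glce* (0.858) and *Gm6222* (0.849), and *Nos3* by *Dmwd* (0.892), *Rps2-ps10* (0.890) and *Dlg4* (0.883). These correlations describe libraries that share 6 groups, and the genes named were picked as the highest of all genes tested.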

How the data were processed

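Neonatal mouse cardiac fibroblast cultures were measured by bulk RNAseq in 6 groups. The authors prepared Kapa stranded mRNA libraries, demultiplexed with bcl2fastq 2.20.0, trimmed high GC content with BBDuk, quantified with Salmon and deposited estimated counts per Ensembl gene, rounded to whole numbers and not scaled to depth. The Salmon version, strand setting and annotation are not given in the sources used here, and the submitters' processing notes name mm10. Positions are those of GENCODE M21 on GRCm38, and the genes on the opposite strand that are named could share reads if strand was not used.

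Libraries were grouped by their labels. After filterByExpr (minimum count 10, minimum total 15) and TMM scaling, edgeR 4.0.16 under R 4.3.3 estimated a mean for each group by quasi-likelihood, which left 6 residual degrees of freedom. Calls used an adjusted p (Benjamini-Hochberg) under 0.05 across 15506 genes. CPM values are TMM-normalized, and correlations used log2 CPM with a prior count of 2. The test was tested on simulated data. Alternatives were DESeq2 1.42.0, its size factors, no filter, single time points, replicate blocks and leaving out each library. A group with at most 3 counts in every library was taken as at the floor.

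Deviations of same-numbered libraries from their group means correlated by 0.19, 0.30 and 0.17 at the 3 time points. The replicate blocks took the numbers of the sample labels to pair the libraries. The main fit had no block, so its values ignore any such pairing. The 10 genes and all lists were chosen with earlier results of these data known. Named list genes were up to 4 per direction and list with the largest fold change among called genes, plus the other ligands and synthases (*Edn2*, *Edn3*, *Nos1* and *Nos2*), and the 3 most correlated genes per member. Of these, 2 genes are not reported here. *Mme*, *Pde1a*, *Pde3a* and *Ptger4* were named after their values were seen. Promoters are RefSeq entries, and motifs were searched one at a time on both strands, so that matches sharing an end base are each counted.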

Additional observations from a re-analysis of the deposited data

Results flagged for a closer look

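For 4 genes the effect of *Sox17*-*Erg* differed between 4 weeks and Day 3 by the test of the difference itself, where 3.21% of all genes tested passed. The difference was 1.31 on the log2 scale for *Ece1* and -0.92 for *Gucy1b1*, and it did not pass in 5 and 9 of 12 fits with 1 library left out. The other 2 were 2 of 56 pathway genes tested, or 3.57%, and with 1 library left out the difference was 2.75 to 3.55 for *Ddah1* and 4.17 to 4.67 for *Pde1b*. That of *Pde1b* passed in all 12 fits, and that of *Ddah1* did not pass in 5 (adjusted p up to 0.080), without the first control library of Day 3 or of 4 weeks, either *Sox17*-*Erg* library of Day 3 or the first *Sox17*-*Erg* library of 4 weeks. It was 3.09 for *Ddah1*, whose control libraries went from 90.3 and 72.1 CPM at Day 3 to 5.41 and 9.15 CPM at 4 weeks. It was 4.37 for *Pde1b*, which reached 51.5 and 43.8 CPM in the *Sox17*-*Erg* libraries of 4 weeks from 3.90 and 5.69 CPM at Day 3.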

How the results depend on the processing

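With 1 library left out at a time, the number of the 10 genes called was 1 to 4 on Day 3, 5 on Day 7, 6 after 4 weeks, 4 to 5 for time in *Sox17*-*Erg* samples, 3 to 6 for time in control samples (3 without the second control library of Day 3 or the first of 4 weeks) and 0 to 2 for the difference in effect. Of all genes, 1.69% to 12.3%, 5.69% to 15.5% and 10.5% to 22.2% were called at the 3 time points in those fits. Of the other pathway genes, 2 to 18, 11 to 24 and 14 to 27 were called at the 3 time points, 12 to 23 and 14 to 27 for time in *Sox17*-*Erg* and control samples, and 1 to 3 for the difference. Values that changed sign in such fits were not called with all libraries: for time, *Edn1* in *Sox17*-*Erg* (-0.28 to 0.31) and control samples (-0.37 to 0.01), and for *Sox17*-*Erg* against control, *Ednra* on Day 3 (-0.05 to 0.91) and Day 7 (-0.06 to 0.69), *Ednrb* on Day 3 (-1.37 to 0.07), *Ece1* on Day 7 (-0.01 to 0.26), *Gucy1b1* on Day 3 (-0.12 to 0.01), *Ptgs2* on Day 7 (-0.47 to 0.53) and *Nos3* on Day 3 (-7.45 to 1.30), Day 7 (-6.16 to 5.45) and after 4 weeks (-1.39 to 3.60). *Ptgs2* on Day 7 was -0.01 with DESeq2 or its size factors and -0.02 in a fit of Day 7 alone. The cause of these changes was not tested. Each fit with 1 library left out called a smaller share of all genes for time and for the difference than the fit with all libraries. With all libraries these shares were 30.7% for time in *Sox17*-*Erg*, 26.5% for time in control samples and 3.21% for the difference. A lower count among the 10 genes in such a fit is therefore not specific to them. With no filter, 25 other pathway genes were called on Day 3 in place of 16, and 7 for the difference in place of 2. Of the 25680 genes then tested, 11.1% and 4.59% were called. The adjusted p was 0.027 for *Ednrb* after 4 weeks and 0.0042 for *Ptgs1* over time in control samples (0.80). It missed the threshold for *Spr* and *Qdpr* after 4 weeks and *Vasp* on Day 7 (0.095, 0.085 and 0.060). In a fit of Day 7 alone 13 other pathway genes were called in place of 22, against 7.46% of all genes. In a fit of 4 weeks alone the adjusted p-values of *Spr* and *Qdpr* were 0.13 and 0.086. DESeq2 called 4 other pathway genes for the difference, against 6.8% of all genes. With the replicate number as a block, 5, 5 and 7 of the 10 genes were called at the 3 time points, against 14.6%, 19.6% and 24.6% of all genes, and *Ptgs1* rose over time in control samples (0.85, adjusted p = 0.045). With the block within each time point 5, 6 and 8 were called, against 23.2%, 27.1% and 31%. There 21, 32 and 31 other pathway genes were called in place of 16, 22 and 27. For the difference 5 were called, against 6.89% of all genes. Among the 10 genes, the pairing changed no call other than that of *Ptgs1* and those given with *Ece1*, *Ednrb* and *Ptgs2*. Low counts limit *Nos3*, *Edn2*, *Edn3* and *Agtr2*, and 2 libraries per group limit every comparison.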
